A study of Homo sapiens with 12 samples.

Results

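The genes described here are 8 genes of cytokines and cytokine-binding proteins: the ligands TNFSF13B, IL32, IL15, IL7, CSF1 and LIF, the receptor chain IL15RA and the soluble antagonist IL18BP. They were chosen by their TPM with and without IFNγ in these libraries, as a list of interferon-responsive cytokine genes, and all 8 were found among the 40173 gene IDs of the expression table. The 624Mel cells, a long established line from a human melanoma, were transfected with a negative control siRNA (siCTRL) or one directed at MITF (siMITF), the transcription factor that maintains the melanocytic state. After 24 h each was left untreated or given 5 ng/mL IFNγ for another 24 h, and RNA of each of the 4 combinations was sequenced in 3 libraries. All 12 libraries thus came from 1 cell line and from transfected cells, and the knockdown rested on 1 siRNA sequence. Expression was given as TPM, the share of a library’s transcripts, corrected for transcript length, so that levels of different genes can be set side by side.

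IFNγ binds its receptor and activates JAK kinases, and the response runs in part through GAS elements in DNA. IRF1 is among the genes it raises, and IRF factors bind related elements called ISRE. Several cytokine genes lie downstream of this pathway and, in part, of NF-κB, and their products act on lymphocytes and myeloid cells. TNFSF13B encodes BAFF, a survival factor for B cells. IL15 supports NK cells and memory CD8+ T cells and is usually presented to them by cells that carry it on the receptor chain IL15RA. IL18BP binds and neutralizes IL18. IL7 supports T cells, CSF1 macrophages, and LIF signals through LIFR and IL6ST.

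The knockdown could be read from its target and from the cell type markers. MITF had 187 to 229 TPM in siCTRL libraries and 36.0 to 49.7 TPM in siMITF libraries. Of 8 melanocytic markers 6 were lower with siMITF by a log2 fold change of at least 1, both without and with IFNγ (limma adjusted p under 0.05). TYR and SOX10 were lower by less than 1 in both comparisons (limma adjusted p under 0.05). The sum of all 8 was 7970 to 9417 TPM in siCTRL and 2308 to 2607 TPM in libraries of siMITF, and 7308 to 9771 and 2134 to 2657 TPM in the same cells with IFNγ. Of 10 leukocyte markers 7 stayed under 1 TPM in every library, among them PTPRC, the pan-leukocyte gene, and CD3E was listed at 0 in all. The sum of these 10 genes was 22.5 to 26.3 TPM in siCTRL and 31.0 to 37.5 TPM in libraries of siMITF, and 12.7 to 19.0 and 18.1 to 26.1 TPM in the same cells with IFNγ, most of it from NCAM1 (8.34 to 31.4 TPM). For 9 stromal and epidermal markers the sums were 6.81 to 8.20, 10.5 to 12.9, 4.41 to 4.98 and 6.15 to 7.92 TPM in the same order, with LUM (2.07 to 7.42 TPM) as the main gene. Both sums were lower with IFNγ, where most of the cytokine genes were higher, and their part in the results was not tested. From 11850 to 12377 genes reached 2 TPM in a library. Mitochondrial genes took 7.42% to 16.9% of the TPM and were lowest in replicate 2 of each condition. In bulk RNA, a different number of expressing cells and a different amount of RNA per cell cannot be told apart.

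The 8 genes covered a wide span of levels. TNFSF13B was the highest in all 4 conditions, and IL18BP and IL32 took the next places. In siMITF libraries the ranges of IL18BP and IL32 overlapped. In siMITF + IFNγ libraries IL32 stood above IL18BP, while the order was the reverse in siCTRL and siCTRL + IFNγ libraries. IL15 was the fourth in every condition but siMITF + IFNγ, where IL15RA (2.07 to 2.56 TPM) stood above it, and there the ranges of IL15 and IL7 overlapped. The remaining genes lay under 1 TPM in all libraries but 1, and most neighbours among them overlapped. Only 5 of the 8, TNFSF13B, IL32, IL18BP, IL15 and IL15RA, reached a mean of 2 TPM in a condition and entered the fit of 12773 genes. IL15 reached it only in siCTRL + IFNγ and IL15RA only in siMITF + IFNγ, so a difference for these genes was favoured by the filter itself. IL32 reached it only in the IFNγ conditions.

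**Figure D1:**
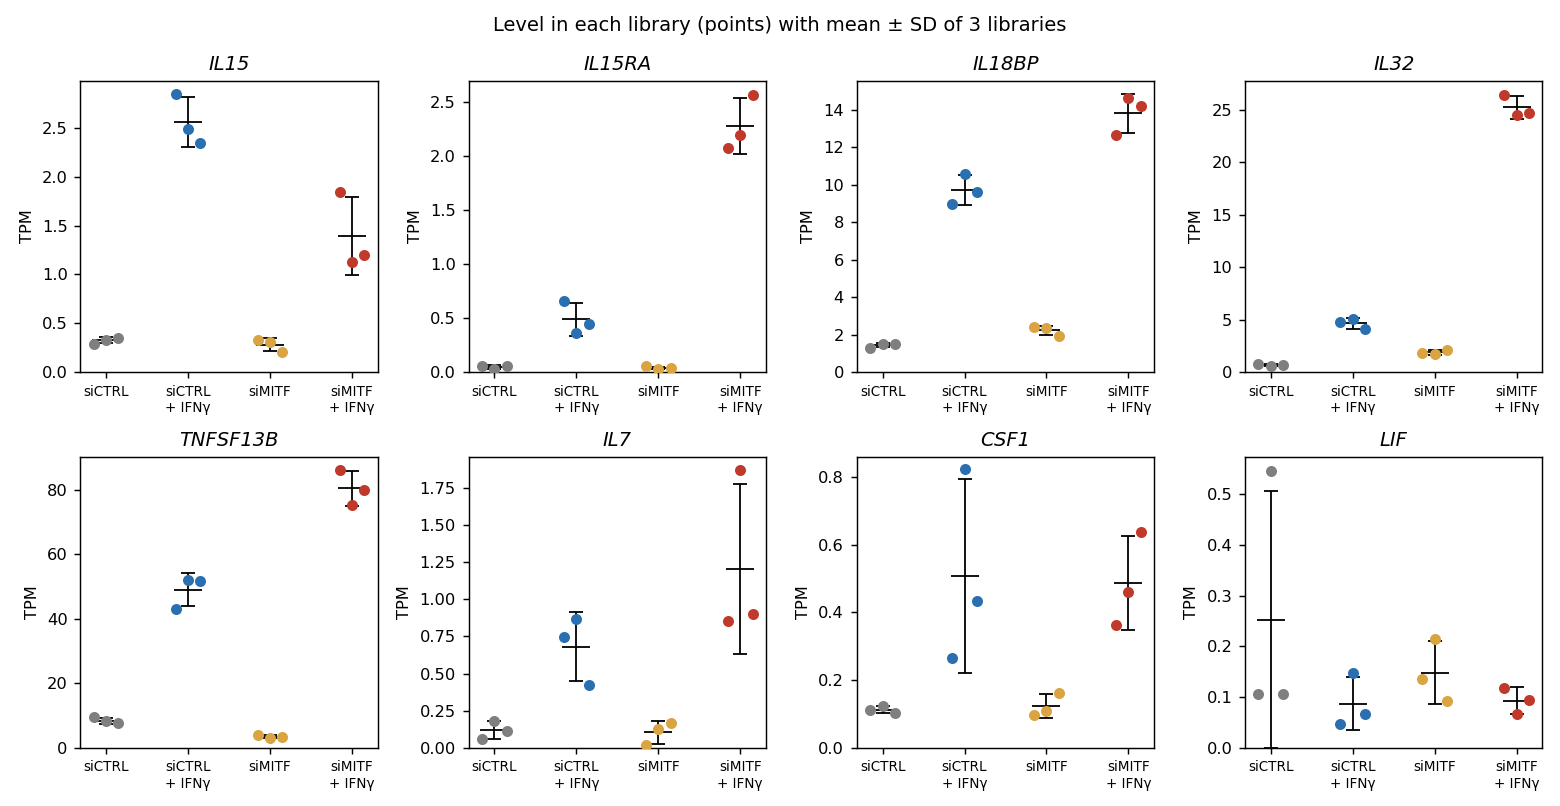
TPM of the 8 cytokine genes in the 4 conditions, with 1 point per library and the mean ± SD of 3 libraries in black, each panel on its own linear axis from 0. TNFSF13B, IL32 and IL15RA were highest in siMITF + IFNγ, IL15 was highest in siCTRL + IFNγ, and LIF had 1 high library in siCTRL and no pattern by IFNγ.

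Because the genes were listed as interferon-responsive, their values with IFNγ are given as a description without a test. In siCTRL cells all 3 IFNγ libraries lay above all 3 untreated libraries for 7 of the 8 genes, where 11.7% of the tested genes did so. In siMITF cells this was again the case for 7 of the 8, where 12.1% of the tested genes did so. The exception in both was LIF, which went against the description of the list as interferon-responsive. The ratio of mean TPM with IFNγ to that without was, in siCTRL cells, 10.2 for IL15RA, 7.91 for IL15, 6.89 for IL32, 6.80 for IL18BP, 5.81 for TNFSF13B, 5.69 for IL7 and 4.51 for CSF1. In siMITF cells the ratios spread out. They were 58.8 for IL15RA, 23.2 for TNFSF13B, 13.5 for IL32, 11.7 for IL7, 6.23 for IL18BP, 4.98 for IL15 and 3.98 for CSF1. The ratios of IL15RA, IL7 and CSF1 rested on untreated means under 0.13 TPM, and those of IL15 on means under 0.33 TPM.

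The tests were siMITF against siCTRL without IFNγ, the same with IFNγ, and the interaction, the amount by which the log2 response to IFNγ was greater with siMITF than with siCTRL. All 3 use libraries whose values were known when the genes were chosen. The interaction is a difference of the IFNγ responses the list is about, so its p-values describe these genes and give no independent support. Fold changes are on the log2(TPM + 1) scale, which makes them smaller for genes with low values. To be called changed, a gene needed a mean of 2 TPM in a condition compared, a log2 fold change of 1 or more in either direction, and an adjusted p under 0.05. The p-values come from limma with Benjamini-Hochberg adjustment over all 12773 genes. Without IFNγ, siMITF changed 1 of the 5 tested genes, TNFSF13B, which was lower, and 2.88% of all tested genes were lower. With IFNγ, 2 of the 5 were called higher, IL32 and IL15RA, and 3.12% of all tested genes were called higher. The filter favoured the call of IL15RA. An interaction was called with an adjusted p under 0.05 and an absolute value over 1. It was called positive for 3 of the 5, TNFSF13B, IL32 and IL15RA, the last of which the filter favoured, and 0.391% of all tested genes were called in this direction.

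**Figure D2:**
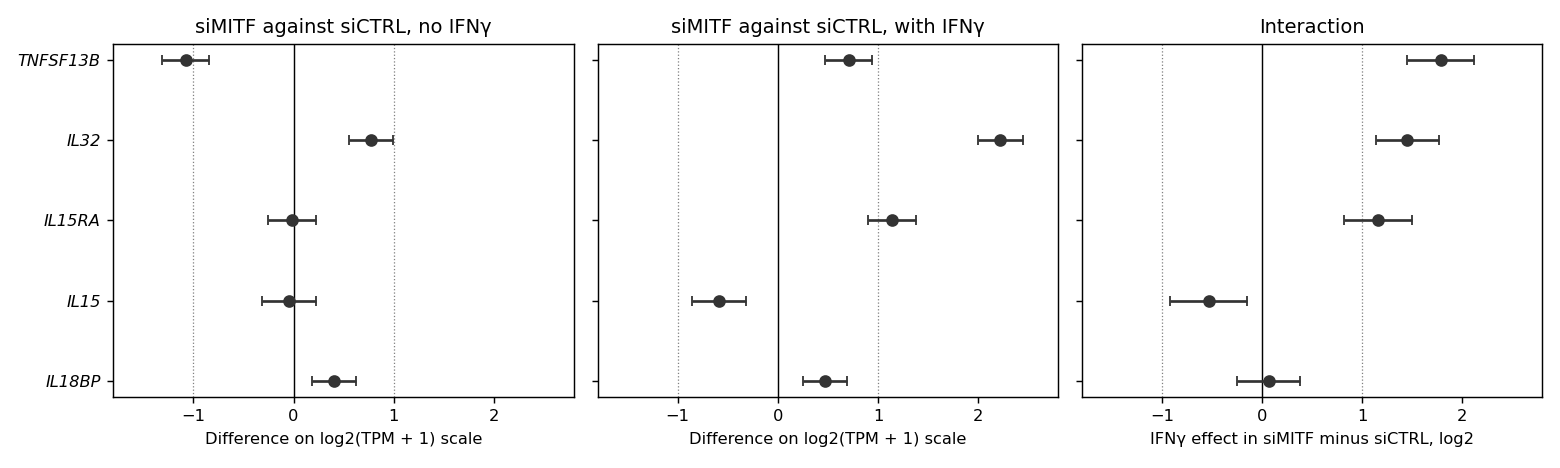
Effect of siMITF without IFNγ (left) and with IFNγ (middle) and the interaction (right) for the 5 tested genes on the log2(TPM + 1) scale, as estimates with 95% confidence intervals from limma. Dotted lines mark -1 and 1, and TNFSF13B lies at -1.08 on the left, 0.71 in the middle and 1.79 on the right.

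TNFSF13B (ENSG00000102524, chromosome 13 from 108251240 to 108308484 on the plus strand, GRCh38) had 9.39, 8.31 and 7.57 TPM in the siCTRL libraries and 3.92, 3.14 and 3.33 TPM in the siMITF libraries. With IFNγ it had 43.0, 52.0 and 51.9 TPM in siCTRL cells and 86.1, 75.4 and 79.9 TPM in siMITF cells. The 4 conditions did not overlap. Without IFNγ all siMITF libraries were below all siCTRL libraries, as for 22.0% of all tested genes. With IFNγ all siMITF libraries were above, as for 21.3%. With siMITF alone TNFSF13B fell by 1.08 on the log2 scale (standard error 0.11, limma adjusted p = 7.9e-06), a size close to the limit of 1. In the presence of IFNγ it was higher by 0.71 (standard error 0.11, limma adjusted p = 0.00028), which did not reach that limit. The interaction was 1.79 (standard error 0.15, 95% confidence interval 1.45 to 2.12, limma adjusted p = 1.5e-04). In TPM, the gain with IFNγ was 40.5 in siCTRL cells and 77.0 in siMITF cells.

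The RefSeq promoter windows of TNFSF13B, which run from 250 bases before to 50 after a start site, are shown because this gene was lower with MITF knockdown and higher with IFNγ. Motifs were searched on both strands as GAS (TTCNNNGAA), ISRE core (GAAA, any 2 bases, GAAA), κB (GGGA, any 3 bases, TCC) and the E-box forms CACGTG and CATGTG, which MITF is known to bind. Over 35116 RefSeq windows these had a match in 7.66%, 3.57%, 5.07%, 7.26% and 11.1%. The first window held CATGTG at position -171 from its start site. The stretch around it lies in an intron of a longer annotated transcript (GRCh38.p14, chr13:108269398-108269628, plus strand), with the E-box in capitals.
TNFSF13B upstream: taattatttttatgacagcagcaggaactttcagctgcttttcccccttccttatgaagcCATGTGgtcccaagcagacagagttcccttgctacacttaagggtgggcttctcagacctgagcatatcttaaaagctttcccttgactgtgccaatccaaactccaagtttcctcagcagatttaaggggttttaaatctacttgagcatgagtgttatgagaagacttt
An ISRE core, in capitals, lay at 18 from the first and at -71 from the second start site of TNFSF13B. IL18BP had an ISRE core at -67 in 1 of its 4 windows. Both stretches lie in an annotated UTR and are on the plus strand (chr13:108269637-108269666 and chr11:71999540-71999569).
TNFSF13B ISRE core: tacaaaaactGAAAGTGAAAtgaggaagac
IL18BP ISRE core: gttaaaaagtGAAAGTGAAAtagagggtcg
The core and 1 base on each side of it, 12 letters in all, were the same in both genes. This run was taken as the longest shared by the stretches, so its presence in both genes was fixed by the choice. It occurred in 6 windows of 5 genes, these genes included, 0.0171% of the windows. The core letters GAAAGTGAAA occurred in 71 windows of 68 genes, 0.202% of the windows. No CACGTG was found in the 12 windows of TNFSF13B, IL18BP, IL32 and IL15RA. A motif match describes the letters only.

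IL32 (ENSG00000008517, chromosome 16 from 3065297 to 3082192 on the plus strand), a proinflammatory cytokine with no mouse counterpart, had the largest difference by siMITF under IFNγ among the 5 tested genes. It had 0.770, 0.595 and 0.654 TPM in siCTRL libraries and 1.78, 1.70 and 2.10 TPM in siMITF libraries. In IFNγ-treated libraries it had 4.74, 5.09 and 4.07 TPM in siCTRL cells and 26.5, 24.5 and 24.7 TPM in siMITF cells. All 4 conditions were apart. In untreated and in treated cells all siMITF libraries were above all siCTRL libraries, as for 33.0% and 21.3% of all tested genes. Without IFNγ the difference was 0.77 (standard error 0.10, limma adjusted p = 8.1e-05). The gene was not called there, since this is under 1 and its mean in siMITF, 1.86 TPM, is under the minimum. The ratio of mean TPM was 2.77. With a pseudocount of 0.1 the difference was 1.35, and the minimum still kept IL32 from being called. With IFNγ IL32 rose with siMITF by 2.22 (standard error 0.10, limma adjusted p = 1.1e-08), a ratio of mean TPM of 5.45. The interaction was 1.45 (standard error 0.14, 95% confidence interval 1.13 to 1.76, limma adjusted p = 3.3e-04). The first IL32 window held κB letters at 2 places, -99 and -68 from the start site. The capitals mark them in the plus strand (chr16:3065294-3065323 and chr16:3065325-3065354, annotated as UTR), and the second match is read on the minus strand.
IL32 κB at -99: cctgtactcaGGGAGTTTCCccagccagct
IL32 κB at -68: tcccgagtctGGACTTTCCCtctgcccctc
No GAS or ISRE core letters were in the IL32 windows, and the second window held CATGTG at 27, in annotated coding sequence. The part of these letters in the IL32 differences was not tested.

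IL15 (ENSG00000164136, chromosome 4 from 141636583 to 141733987 on the plus strand) and its receptor chain IL15RA (ENSG00000134470, chromosome 10 from 5943639 to 5978187 on the minus strand) differed in opposite directions with siMITF under IFNγ. IL15 had 0.291, 0.330 and 0.353 TPM in siCTRL libraries and 0.325, 0.308 and 0.207 TPM in siMITF libraries, which overlapped. IFNγ-treated libraries had 2.85, 2.49 and 2.35 TPM in siCTRL cells and 1.85, 1.13 and 1.20 TPM in siMITF cells. All siMITF + IFNγ libraries were below all siCTRL + IFNγ libraries, as for 17.0% of all tested genes. The difference was -0.58 on the log2 scale (95% confidence interval -0.85 to -0.31, standard error 0.12, limma adjusted p = 0.0031). This was under the limit of 1, and 14.7% of all tested genes were lower at an adjusted p under 0.05 alone. IL15 entered the fit only through siCTRL + IFNγ, so the filter favoured this difference. The interaction of IL15 was -0.53 (95% confidence interval -0.92 to -0.15, unadjusted p = 0.010, limma adjusted p = 0.33) and did not pass. With the pseudocount of 1 it was the only negative estimate among the 5 genes.

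IL15RA had 0.0550, 0.0286 and 0.0601 TPM in siCTRL libraries and 0.0512, 0.0313 and 0.0336 TPM in siMITF libraries. With IFNγ it had 0.658, 0.357 and 0.445 TPM in siCTRL cells and 2.07, 2.19 and 2.56 TPM in siMITF cells. Untreated libraries overlapped near 0, and the siMITF + IFNγ libraries stood above all others. For 21.3% of all tested genes all siMITF + IFNγ libraries were above all siCTRL + IFNγ libraries. With IFNγ, siMITF raised IL15RA by 1.14 (standard error 0.11, limma adjusted p = 5.8e-06), and the ratio of mean TPM was 4.68. The gene entered the fit only through siMITF + IFNγ, so the filter favoured this difference and the interaction. The interaction of IL15RA was 1.15 (standard error 0.16, 95% confidence interval 0.82 to 1.49, limma adjusted p = 0.0027). With a pseudocount of 0.1 the estimate was 2.13 and the limma adjusted p 0.0532, which ended the call. Of 4 IL15RA windows, 1 held GAS letters at -127 (chr10:5978154-5978183, minus strand, annotated as UTR), and another held κB letters at 1 place.
IL15RA GAS: gcagcaggaaTTCGGCGAAgtggcggagct

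The ratio of IL15RA to IL15 TPM was computed in each library after the values of both genes had been seen. It was 0.231, 0.143 and 0.189 in siCTRL + IFNγ and 1.12, 1.94 and 2.13 in siMITF + IFNγ libraries. In untreated cells it was 0.0867 to 0.189 with siCTRL and 0.101 to 0.162 with siMITF. IL15 mRNA thus exceeded IL15RA mRNA in 9 of 12 libraries, and the reverse held in the 3 siMITF + IFNγ libraries. The mean log2 ratio differed by 3.18 between the IFNγ conditions (exact two-sided permutation p = 0.1, the smallest that 3 libraries against 3 can give). IL15 had passed the filter only through siCTRL + IFNγ and IL15RA only through siMITF + IFNγ. The filter thus favoured this difference, and the p-value gives no independent support.

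**Figure D3:**
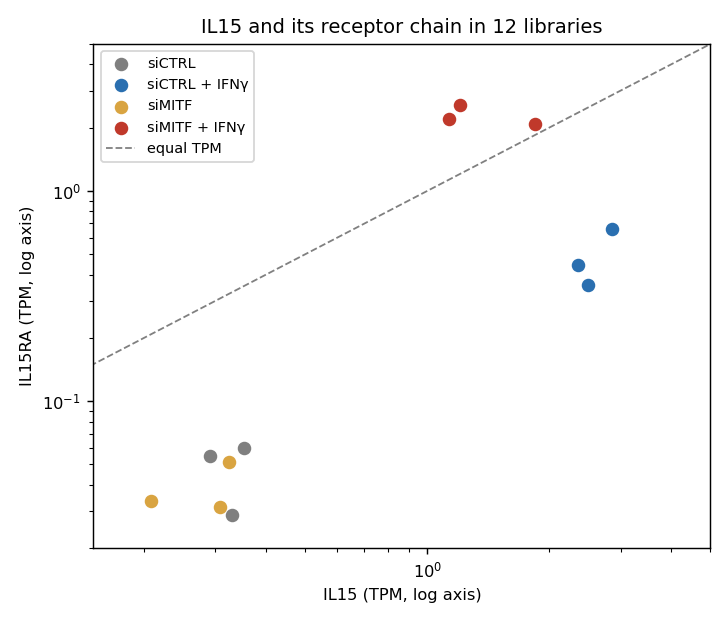
IL15RA against IL15 in TPM, both on log axes, with 1 point per library and a dashed line at equal TPM. The siMITF + IFNγ libraries lie above the line, with ratios of 1.12 to 2.13, and the siCTRL + IFNγ libraries lie below it, with ratios of 0.143 to 0.231.

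IL18BP (ENSG00000137496, chromosome 11 from 71998613 to 72007315 on the plus strand) differed with siMITF by a similar size in untreated and treated cells. It had 1.31, 1.47 and 1.50 TPM in siCTRL libraries and 2.39, 2.34 and 1.93 TPM in siMITF libraries. After IFNγ it had 8.98, 10.6 and 9.60 TPM in siCTRL cells and 12.7, 14.6 and 14.2 TPM in siMITF cells. In each case all siMITF libraries were higher, as for 33.0% of all tested genes without and 21.3% with IFNγ. The difference was 0.41 without IFNγ (standard error 0.10, limma adjusted p = 0.0080) and 0.47 with IFNγ (standard error 0.10, limma adjusted p = 0.0035), both under the limit of 1. At an adjusted p under 0.05 alone, 21.0% and 18.4% of all tested genes were higher in these comparisons. The interaction was 0.06 with a 95% confidence interval from -0.25 to 0.38 (limma adjusted p = 0.99), and its sign turned with a smaller pseudocount. IL18 itself, the cytokine that IL18BP binds, lay between 0.282 and 0.901 TPM in all libraries. The IL18BP gene overlaps NUMA1 on the opposite strand, which had a mean of up to 64.5 TPM. The library kit does not keep the strand, so reads from shared sequence cannot be told apart. Beside the ISRE core, the same IL18BP window held GAS letters at -37 and -7. The first is shown (chr11:71999570-71999599, plus strand, annotated as UTR).
IL18BP GAS: gggcagtgctTTCCCAGAAggattgctcgg

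IL7, CSF1 and LIF had too little signal for the filter. IL7 (ENSG00000104432) had 0.0616, 0.183 and 0.114 TPM in siCTRL and 0.0180, 0.125 and 0.166 TPM in libraries of siMITF. After IFNγ the values were 0.749, 0.871 and 0.421 TPM in siCTRL and 0.852, 1.87 and 0.902 TPM in siMITF cells. The treated ranges overlapped, with replicate 2 the highest in both. CSF1 (ENSG00000184371, chromosome 1 from 109910242 to 109930992 on the plus strand) had 0.112, 0.124 and 0.101 TPM in siCTRL and 0.0963, 0.108 and 0.162 TPM in libraries of siMITF. With IFNγ it had 0.266, 0.823 and 0.432 TPM in siCTRL and 0.363, 0.460 and 0.637 TPM in siMITF cells, which again overlapped. LIF (ENSG00000128342, chromosome 22 from 30240453 to 30246759 on the minus strand) ranged from 0.0471 to 0.547 TPM over all libraries, and all conditions overlapped. In a fit of 29003 genes without a filter, no siMITF comparison or interaction of these 3 genes had a limma adjusted p under 0.05, and the lowest was 0.18 for IL7 with IFNγ (estimate 0.37, 95% confidence interval 0.01 to 0.74). The IL7 gene overlaps ZC2HC1A on the other strand, which had a mean of up to 6.68 TPM.

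A combined value may exceed the sum of single effects on one scale and not on another, so the same question was put in TPM. The sum was the siCTRL mean plus the change with IFNγ alone plus the change with siMITF alone. TNFSF13B had a sum of 44.0 TPM and 80.5 ± 5.40 TPM in the combination (mean ± SD, n = 3). IL32 had 5.83 and 25.2 ± 1.06 TPM. IL15RA had 0.477 and 2.28 ± 0.257 TPM. The combination was 1.83, 4.33 and 4.77 times the sum for these 3 genes. IL18BP, with no interaction called on the log2 scale, had a sum of 10.5 TPM and a combination of 13.8 ± 1.04 TPM, all 3 libraries lying above the sum. IL15 had a sum of 2.52 TPM and a combination of 1.39 ± 0.395 TPM, all 3 libraries lying below it. These ratios carry no test.

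**Figure D4:**
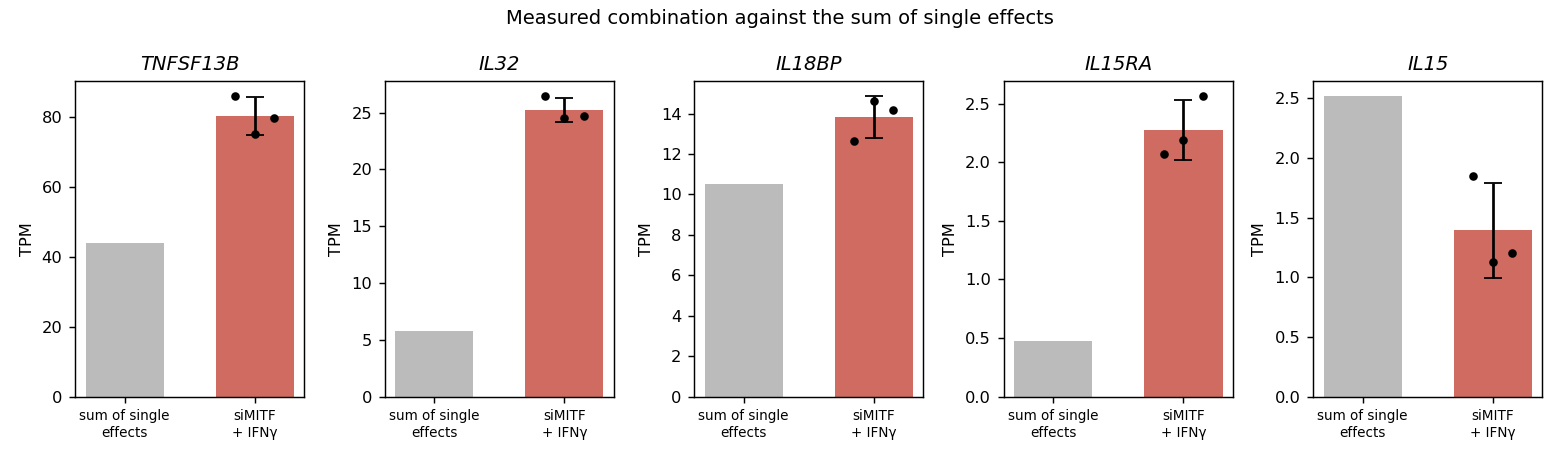
TPM measured in siMITF + IFNγ (red bars, mean ± SD, with the 3 libraries as points) beside the sum of the single effects from condition means (grey bars), each panel on its own axis from 0. TNFSF13B, IL32, IL18BP and IL15RA lay above the sum and IL15 below it.

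The receptors and partners of these cytokines were mostly low in the melanoma cells. Of 26 such genes 16 stayed under 1 TPM in every library, including IL2RB and IL2RG, the signalling chains for IL15, the BAFF receptors TNFRSF13B, TNFRSF13C and TNFRSF17, the CSF1 receptor CSF1R and the IL18 receptor IL18R1. Among the 9 tested were IL6ST (13.4 to 42.5 TPM) and LIFR (1.63 to 4.61 TPM), the chains through which LIF signals, IL7R (1.31 to 4.16 TPM), and FURIN (31.7 to 79.6 TPM), a protease that can release BAFF from the cell surface. None of the 9 was called changed with siMITF without IFNγ, where 6.10% of all tested genes were. At a limma adjusted p under 0.05 alone 3 of the 9 were higher there, where 21.0% of all tested genes were. These were CNTF by 0.77, IL7R by 0.49 and CNTFR by 0.33, all under the limit of 1. With IFNγ 1 of the 9 was called changed, where 5.68% of all tested genes were. This was CASP1, the protease that activates IL18. CASP1 had 1.68, 1.72 and 1.32 TPM in siCTRL + IFNγ and 4.59, 4.50 and 4.14 TPM in siMITF + IFNγ libraries. Its values without IFNγ were at most 0.0437 TPM. The difference with IFNγ was 1.07 (standard error 0.10, limma adjusted p = 4.7e-06). The interaction was 1.05 (limma adjusted p = 0.0028), and like IL15RA it reached 2 TPM only in the combination. This interaction was not called with a pseudocount of 0.1, with an overall mean of 5 TPM required, with quantile normalization or without siCTRL + IFNγ replicate 3. The median log2 difference of the 9 genes was 0.31 without and 0.14 with IFNγ, beside 0.06 and 0.03 over all tested genes.

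Other cytokines and antagonists showed few of these changes. Of 45 other cytokine genes 33 stayed under 1 TPM in every library and 9 were tested. Without IFNγ siMITF raised IL24 by 1.17 (limma adjusted p = 0.0011) and KITLG, the ligand of the receptor KIT, by 1.18 (limma adjusted p = 2.5e-06), and no gene of the 9 was called lower. With IFNγ IL24 rose by 1.16 (limma adjusted p = 0.0013), while IL16 fell by 1.08 (limma adjusted p = 8.3e-05). KITLG was higher with siMITF under IFNγ by 0.96 (limma adjusted p = 1.7e-05), under the limit of 1. IL16 was lower with siMITF without IFNγ by 0.59 (limma adjusted p = 0.0060), also under that limit. IFNγ raised FLT3LG, which supports dendritic cells, by 1.12 in siCTRL and 1.01 in siMITF cells (limma adjusted p = 8.4e-05 and 1.8e-04). TNFSF10, the death ligand TRAIL, rose by 1.57 in siMITF and by 1.30 in siCTRL cells (limma adjusted p = 2.4e-05 and 1.6e-04). It had 1.54 to 1.88 TPM in siCTRL + IFNγ. TNFSF10 reached the minimum of 2 TPM only in the combination, so its rise in siCTRL cells was not called. In siCTRL cells 2.52% of all tested genes changed with IFNγ, and in siMITF cells 2.95%. No interaction was called among these 9 genes, where 0.478% of all tested genes had one. Of 8 antagonists 2 were tested, and TNFRSF11B, a decoy receptor, rose with siMITF by 1.10 without IFNγ (limma adjusted p = 1.6e-04) and by 1.03 with it (limma adjusted p = 2.8e-04). TNFRSF11B reached 2 TPM only in the siMITF conditions (means of 0.802 and 2.85 TPM without IFNγ, 1.15 and 3.39 TPM with it), so the filter favoured these differences.

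The signalling genes upstream were measured in the same libraries. Of 12 IFNγ pathway genes listed here 11 were tested, and 6 rose with IFNγ in siCTRL and 6 in siMITF cells: STAT2, STAT3, IRF1, IRF9, SOCS1 and SOCS3. Their list had a median log2 change of 1.79 in siCTRL and 1.55 in siMITF cells, beside -0.07 and -0.10 over all tested genes. No gene of this list was called for an interaction. IRF1 had 76.8, 102.0 and 85.1 TPM in siCTRL + IFNγ and 133.8, 170.2 and 161.8 TPM in siMITF + IFNγ libraries, higher by 0.82 with siMITF (limma adjusted p = 2.3e-04) and under the limit of 1. Its interaction was 0.59 (95% confidence interval 0.22 to 0.96, limma adjusted p = 0.21). The study cited IRF1 among the genes most affected in its own non-additive analysis, which used DESeq2 on counts. IRF9, part of the factor that binds ISRE, had an interaction of 0.61 (limma adjusted p = 0.045), with 38.2 to 44.6 TPM in siCTRL + IFNγ and 38.3 to 40.1 TPM in siMITF + IFNγ, which overlapped. Without IFNγ the IRF9 difference by siMITF was -0.69 (limma adjusted p = 7.0e-05), under the limit of 1. SOCS1, an inhibitor of JAK kinases, had 3.80, 4.63 and 2.96 TPM in siCTRL + IFNγ and 9.26, 11.4 and 11.0 TPM in siMITF + IFNγ libraries, a rise of 1.28 with siMITF (limma adjusted p = 2.0e-05). Without IFNγ SOCS1 was higher with siMITF by 1.16 (limma adjusted p = 4.1e-05) and was not called, its mean in siMITF being 1.84 TPM. The interaction of SOCS1 was 0.12 (limma adjusted p = 0.99). Of 9 NF-κB genes 7 were tested. TNFAIP3, which restrains NF-κB, had 94.6 to 97.4 TPM in siCTRL and 37.2 to 38.2 TPM in libraries of siMITF and fell by 1.33 (limma adjusted p = 1.4e-05). With IFNγ the difference of TNFAIP3 was -0.86 (limma adjusted p = 5.5e-04), under the limit of 1. NFKB2 was higher with siMITF by 0.70 without IFNγ (limma adjusted p = 9.0e-05) and by 0.45 with it (limma adjusted p = 0.0029), neither of them called. RELA lay between 43.5 and 65.7 TPM with limma adjusted p-values of 0.79 and 0.33 for siMITF without and with IFNγ.

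For the 3 ligands in the name of the list, the tested genes most like each were found by Pearson's r of log2(TPM + 1) over the 12 libraries. These values describe 4 conditions measured 3 times, which all genes share, and carry no p. The profile of TNFSF13B was most like that of CD274, which encodes PD-L1 (r = 0.993), followed by ERP44 (0.990) and TNFRSF21 (0.987). CD274 had means of 1.61 TPM in siCTRL and 0.587 TPM in libraries of siMITF without IFNγ, and of 9.27 and 13.8 TPM with it. These means had the same order as those of TNFSF13B, which follows from picking CD274 for its likeness. In the study's qPCR the decrease of PD-L1 mRNA with MITF knockdown alone was not significant. IL32 was most like SSTR2 (0.992), FCRLA (0.983) and PALMD (0.979), of which SSTR2 and PALMD reached 2 TPM only in the combination. FCRLA had 3.64, 6.21, 8.63 and 17.5 TPM in the same order of conditions. IL15 was most like FCGR2B (0.978), FYB1 (0.975) and IFIT1 (0.975). In that order FYB1 had 1.33, 0.183, 27.5 and 12.6 TPM, and IFIT1 had 2.34, 0.877, 21.4 and 7.49 TPM.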

How the data were processed

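RNA of 624Mel cells in 4 conditions (3 libraries each) was sequenced after preparation with a TruSeq RNA v2 kit. The authors trimmed reads with Trimmomatic 0.39, and kallisto gave transcript levels against the human GRCh38 transcriptome of Ensembl. They deposited TPM per Ensembl gene ID. The step from transcripts to genes and the Ensembl release are not given in the sources used here. The authors tested counts with DESeq2 1.26.0, and counts were not used here. TPM keep no depth, so counting error is unknown. The study's methods describe replicates of its experiments as independent biological ones, and p-values here measure the spread between the libraries of a condition. Groups were taken from the labels.

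log2(TPM + 1) of 12773 gene IDs, those whose mean reached 2 TPM in any condition, was fitted with limma 3.58.1 (R 4.3.3). All 12 libraries were in 1 fit with a coefficient for each condition and trended empirical Bayes. Two-sided p-values were adjusted by Benjamini and Hochberg. siMITF and IFNγ effects without the other treatment share the siCTRL libraries. The script was tested on simulated data. After subtracting condition means, all 18 pairs of libraries with the same replicate number correlated across genes (r from 0.102 to 0.625, median 0.279), and 36 pairs with different numbers had a median of -0.196. The numbers were therefore taken to pair the libraries, from the data and not from a label, and a blocked fit was run.

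The cytokine genes and all lists were chosen with earlier results of these data known, so no test on them is independent evidence. The genes named were the 8 cytokine genes, tested genes of the lists, in particular those changed, and the 3 genes most like IL15, IL32 and TNFSF13B. Positions come from GENCODE version 44 (GRCh38), promoter sequences from RefSeq (GRCh38.p14), where windows of TNFSF13B, IL32, IL15RA and IL18BP were matched by symbol and used. Protein lengths and identities were not computed, and 1 gene of the pathway lists is not reported here. Alternatives were pseudocounts of 0.1 and 0.5, no filter, an overall mean of 5 TPM or more, quantile normalization, median centring, no trend, only the libraries compared, the block, TPM summed by symbol, and each library left out. Added after seeing the data were no minimum fold change, the counts over lists, and the leave-one-out values of the IL15RA to IL15 ratio and of the sums in TPM. Python 3.11.15, pandas 2.3.3 and matplotlib 3.10.9 were used for tables and figures. The secreted protein assay and other experiments of the study were not analysed here.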

Additional observations from a re-analysis of the deposited data

Results flagged for a closer look

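The effect of IFNγ differed between siMITF and siCTRL cells for TNFSF13B, IL32 and IL15RA by the interaction term, which was called in this direction for 0.391% of all tested genes. The difference on the log2 scale was 1.79 for TNFSF13B, 1.45 for IL32 and 1.15 for IL15RA. IL15RA entered the test only through siMITF + IFNγ, where it was high, so its interaction was favoured by the filter. For TNFSF13B the order of siMITF and siCTRL also turned between untreated and IFNγ-treated cells, in all 3 libraries of each condition. The sum of leukocyte markers was 18.1 to 26.1 TPM in siMITF + IFNγ and 12.7 to 19.0 TPM in siCTRL + IFNγ libraries, while CD3E was listed at 0 in all. Most of this sum came from NCAM1, and 7 of the 10 markers, PTPRC among them, stayed under 1 TPM in every library. The part of other cell types in these differences was not tested.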

How the results depend on the processing

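The counts of changed cytokine genes (1 for siMITF without IFNγ, 2 with IFNγ, 3 for the interaction) were the same with the replicate number as a block and in every fit without 1 library, with the same genes called, and the block changed no other call over the lists. With an overall mean of 5 TPM required, only TNFSF13B, IL32 and IL18BP remained in the test, and the counts were 1, 1 and 2. With no minimum fold change they were 3 without IFNγ (IL32 and IL18BP higher, TNFSF13B lower) and 5 with it (IL15 lower, the others higher). By that rule 21.0% of all tested genes were higher without IFNγ, and 18.4% were higher and 14.7% lower with it. The share lower without IFNγ by that rule is not given here, so the count of 3 has no full share beside it. The interaction of IL15RA had limma adjusted p-values up to 0.0532 (pseudocount 0.1), and that count was then 2. The interaction of IL18BP turned to -0.094 with a pseudocount of 0.1, to -0.0052 with 0.5 and to -0.0020 without siMITF replicate 3 (up to 0.12 without siMITF + IFNγ replicate 1), and never passed the threshold. That of IL15 had limma adjusted p-values from 0.0833 to 0.74. Over the 5 pathway lists the interaction count of 1 (CASP1) fell to 0 with a pseudocount of 0.1, with at least 5 TPM, with quantile normalization and without siCTRL + IFNγ replicate 3 (leave-one-out range 0 to 1). The count of 5 list genes for siMITF with IFNγ was 2 with at least 5 TPM and 3 to 6 over the fits without 1 library, 3 of them without siMITF + IFNγ replicate 1. The count of 9 for IFNγ in siMITF cells was 5 with at least 5 TPM. IFNγ effects of low genes moved with the pseudocount, that of IL15RA in siMITF cells from 1.65 up to 4.10. The median of all genes moved by -0.10 with IFNγ in siMITF cells, and by -0.07 after quantile normalization. The combination over the sum in TPM ran from 4.20 to 5.81 for IL15RA and from 0.463 to 0.606 for IL15 without 1 library. Depth is unknown, so genes under 1 TPM carry an unknown counting error.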
